A study of Homo sapiens with 21 samples.

Results

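The ABC drug transporter genes described here are 10 members of the ATP-binding cassette family, ABCB1, ABCB6, ABCC1, ABCC3, ABCC4, ABCC5, ABCC10, ABCG2, ABCA2 and ABCA3. They were taken by symbol from the count tables, and all 10 were present among 28008 genes in both. Messenger RNA was sequenced in 21 libraries of 2 human leukaemia lines, OCI-AML3 from an acute myeloid leukaemia and K562, an erythroleukaemia line, with 3 libraries in each of 7 groups. In sequencing batch 1 the groups were OCI-AML3 cells of genotype Res under StAMP (biological replicate 1, called resistant 1), untreated K562 parental cells of genotype WT, OCI-AML3 cells of genotype WT under DMSO (vehicle) and untreated OCI-AML3 parental cells of genotype WT. In batch 2 they were a second resistant biological replicate under StAMP (resistant 2), resistant 1 again and DMSO vehicle. The labels do not spell out StAMP, though the series title speaks of stapled peptides that kill cancer cells. The sources used here do not give how cells were selected, nor whether a resistant biological replicate is a clone or a pool. The labels do not say that libraries of a group were separate cultures, so p-values measure only the spread between these libraries.

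ABC transporters are membrane proteins that use ATP to move substrates across a membrane. Several members of the B, C and G subfamilies sit in the plasma membrane and carry drugs out of the cell, and a raised level of P-glycoprotein, the product of ABCB1, is a classic feature of multidrug-resistant leukaemia lines. Members of the A subfamily mainly move lipids, often in intracellular membranes. Transport depends on protein amount and place, which messenger RNA does not measure.

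The libraries labelled resistant did not carry the profile of the line they are labelled with. Across 10781 genes averaging above 5 CPM (counts scaled to a common library total), Pearson correlations of log2 levels with K562 parental libraries were 0.977 to 0.980 for batch 1 resistant 1, 0.909 to 0.940 for batch 2 resistant 1 and 0.900 to 0.930 for resistant 2. With vehicle libraries of the same batch they were 0.506 to 0.509, 0.557 to 0.581 and 0.555 to 0.574 in that order. The summed level of 15 erythroid markers was 6590 to 6865 CPM in resistant 1 of batch 1, 6462 to 6617 CPM in K562 and 143.0 to 150.1 CPM in vehicle of batch 1. The batch 2 sums were 1770.0 to 2749 CPM in resistant 2, 2621 to 3181 CPM in resistant 1 and 94.9 to 141.8 CPM in vehicle. The summed level of 16 myeloid markers was 93.9 to 94.8 CPM in resistant 1 of batch 1, 44.0 to 46.7 CPM in K562 and 4234 to 4394 CPM in vehicle of batch 1. It was 143.8 to 162.7 CPM in resistant 2, 184.8 to 214.1 CPM in resistant 1 of batch 2 and 3144 to 3272 CPM in vehicle of batch 2. The myeloid genes HOXA9 and HOXA10 had 0 counts in all 9 libraries labelled resistant. Of the 16, ITGAM went the other way, at 1.16 ± 0.18 on the log2 scale (SE) in resistant 1 against vehicle of batch 1. In batch 2, 1 of 15 myeloid markers tested was higher than in vehicle in each resistant group (edgeR adjusted p under 0.05). All 11 markers of epithelial, fibroblast and lymphoid cells together gave 331.3 to 507.5 CPM in these libraries, 547.6 to 553.1 CPM in K562 and at most 2.18 CPM in vehicle. Every difference below between a resistant and a vehicle group therefore runs along with a difference in cell-line profile, and the effect of resistance and that of cell line cannot be told apart. Total counts per library ran from 14066821 to 21091646 in batch 1 and from 30719771 to 51262668 in batch 2. In bulk RNA, fewer cells of a kind and less RNA per cell cannot be told apart.

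Against vehicle, most of the transporter genes were higher in the libraries labelled resistant, and ABCA2 was lower. In batch 1, 9 of the 10 passed the low-count filter, and in resistant 1 against vehicle 8 rose and 1, ABCA2, fell (edgeR quasi-likelihood test, Benjamini-Hochberg adjusted p under 0.05). Of all 14505 genes tested, 86.0% were called, 44.0% higher and 42.1% lower. In batch 2, 8 passed the filter. There 7 rose and ABCA2 fell in resistant 2 against vehicle, where 76.1% of 15218 genes were called, 40.2% higher and 35.9% lower. Likewise 7 rose and ABCA2 fell in resistant 1 against vehicle, where 75.7% were called, 39.9% higher and 35.8% lower. Both batch 2 comparisons share the same vehicle libraries. K562 against OCI-AML3 parental gave 7 higher and ABCA2 lower of 8 tested, with 85.1% of 13883 genes called, 42.6% higher and 42.5% lower. A call as such is therefore the usual outcome for a gene in each of these comparisons.

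The median log2 fold change of the transporter genes tested was 1.32 in resistant 1 of batch 1, 1.36 in resistant 1 of batch 2 and 1.24 in resistant 2, each against vehicle. Over all genes tested the medians were 0.02, 0.07 and 0.07. For K562 against OCI-AML3 parental the median was 1.13 over the transporter genes and 0.00055 over all genes. Placing ABCB1 at its counting bound, given below, does not move these medians, since it lies above them either way. ABCG2 was tested in no comparison, and ABCC3 neither within batch 2 nor between the parental lines. Those 2 genes are given by their counts. ABCB1 in every comparison of a resistant or K562 group with OCI-AML3 vehicle or parental cells, and ABCC3 for resistant 1 in batch 1, passed the low-count filter only through libraries in which they were high. They could hardly be counted as other than higher there, so these counts and medians are descriptions of the genes that passed and not of all 10.

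**Figure D1:**
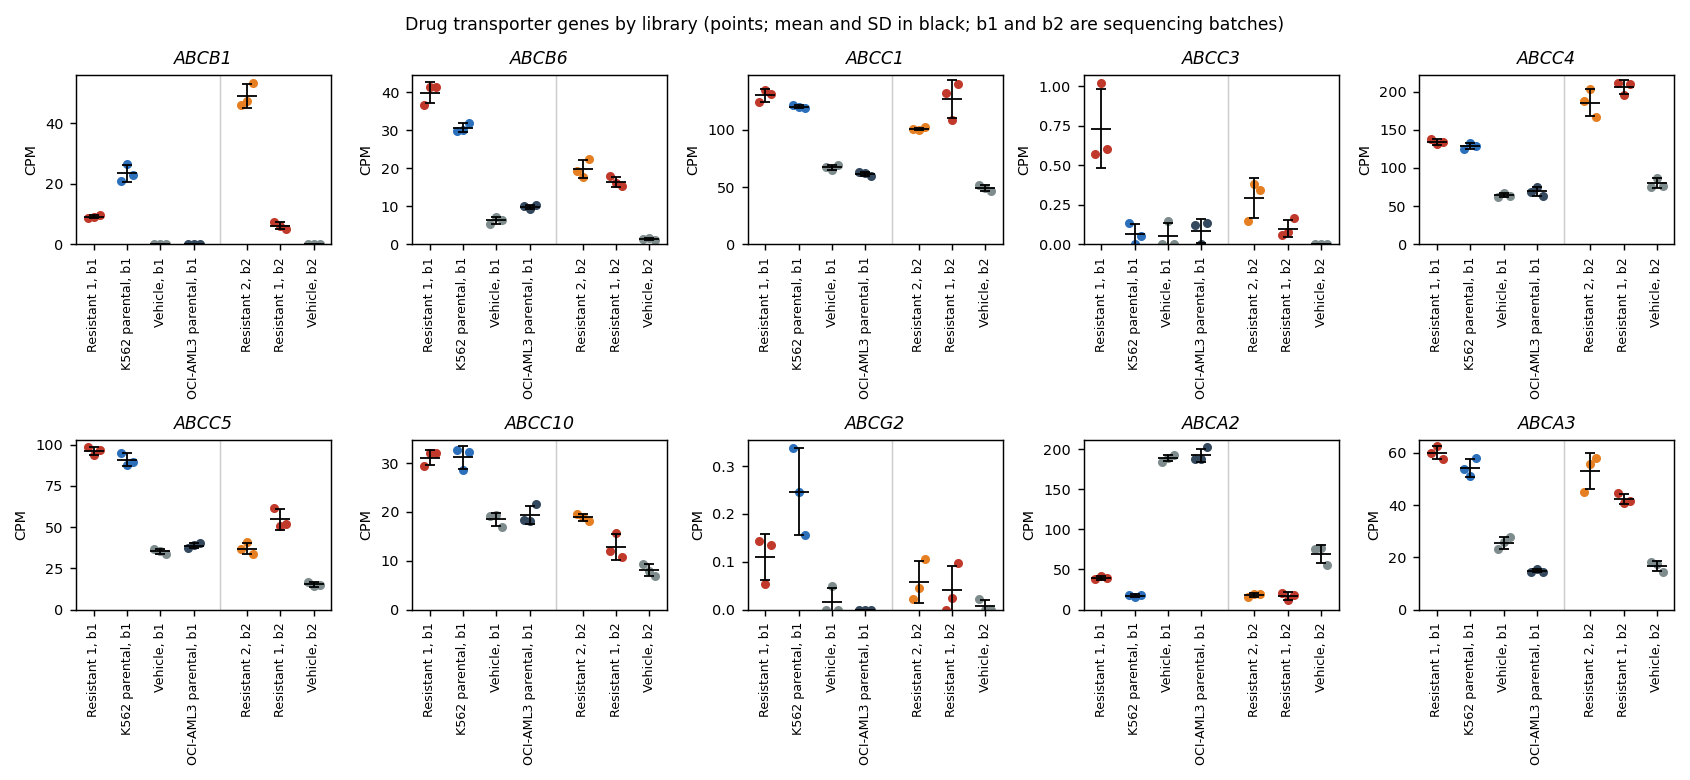
CPM (linear axes from 0) of each transporter gene in all 21 libraries, with group mean and SD in black, resistant groups in red and orange, K562 in blue and OCI-AML3 vehicle and parental in greys; batch 1 is left and batch 2 right of the line. ABCA2 is highest in the OCI-AML3 vehicle and parental libraries, and ABCB1 reaches 46.1 to 53.5 CPM in resistant 2.

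ABCB1 encodes P-glycoprotein, an exporter of many hydrophobic drugs, and lies on the minus strand at chr7:87503017-87713323 (hg38). Its RefSeq starts are shown because it was counted in all resistant and K562 libraries and was at 0 in the OCI-AML3 libraries of batch 1. Each window holds 250 bases before to 50 after a RefSeq start on GRCh38.p14, read on the gene's strand. Capitals mark CCAAT and GGGCGG, searched on both strands (as ATTGG and CCGCCC on the other). The first window, chr7:87600835-87601134, lies inside the annotated gene, and the other, chr7:87713246-87713545, at its upstream end.
ABCB1, inner start: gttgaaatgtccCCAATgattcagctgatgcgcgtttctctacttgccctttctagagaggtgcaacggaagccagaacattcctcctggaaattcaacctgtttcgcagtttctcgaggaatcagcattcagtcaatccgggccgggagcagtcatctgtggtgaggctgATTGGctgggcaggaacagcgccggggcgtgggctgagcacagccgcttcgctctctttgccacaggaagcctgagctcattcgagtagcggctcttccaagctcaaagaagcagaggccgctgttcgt
ABCB1, upstream start: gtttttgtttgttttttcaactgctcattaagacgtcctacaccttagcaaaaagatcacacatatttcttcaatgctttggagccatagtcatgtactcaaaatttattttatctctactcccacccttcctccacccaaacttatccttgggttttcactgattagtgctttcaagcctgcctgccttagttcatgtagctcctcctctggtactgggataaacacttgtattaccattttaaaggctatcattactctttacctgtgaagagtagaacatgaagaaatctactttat
The inner window has 55.3% G and C and 2 CCAAT matches, which begin 238 and 79 bases before the start. The upstream window has 37.7% G and C and neither motif. Of 35116 RefSeq promoter windows of this length, 34.6% hold CCAAT and 45.0% hold GGGCGG, so a match is common. The tables count reads per gene and do not say which start was used.

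ABCB1 was counted in every K562 library and every library labelled resistant, and was at 0 in the OCI-AML3 libraries of batch 1. In batch 1 its level was 8.78, 8.91 and 9.72 CPM in resistant 1, 20.9, 26.6 and 22.9 CPM in K562, and 0 counts in all 3 vehicle and all 3 parental libraries. Batch 2 had 46.1, 47.5 and 53.5 CPM in resistant 2, 7.53, 5.90 and 5.06 CPM in resistant 1, and 1 count in 1 of 3 vehicle libraries. No group that held ABCB1 overlapped another of its batch.

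Over the libraries of a group, resistant 1 of batch 1 had 496 ABCB1 counts and vehicle none, which makes it at least 159-fold higher against a floor of 3 counts over the vehicle group. K562, with 1183 counts, was at least 364-fold higher than OCI-AML3 parental by the same floor. In batch 2 resistant 2 had 6794 counts against 1 in vehicle, which gives a ratio of 5744 (exact 95% counting interval 1031 to 226899). Resistant 1 of batch 2 had 773 counts against that 1, which gives 745 (133 to 29475). The intervals cover counting error only, and the bounds only that of the vehicle or parental group. ABCB1 passed the low-count filter of these comparisons only through the libraries in which it was high, so its edgeR calls there are not used as support.

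The resistant and K562 groups differed among themselves in ABCB1. Resistant 2 averaged 49.1 ± 3.92 CPM and resistant 1 of batch 2 6.16 ± 1.26 CPM (SD, n = 3 each), so that ABCB1 was 2.98 ± 0.17 higher on the log2 scale (SE, adjusted p = 8.2e-08). In batch 1, resistant 1 averaged 9.14 ± 0.509 CPM and K562 23.5 ± 2.86 CPM (SD, n = 3 each), and the log2 difference was -1.37 ± 0.10 (SE, adjusted p = 1.4e-10). The level in resistant 1 was thus below that of K562, while that of resistant 2 was above the K562 values of the other batch, a difference across tables normalized separately that was not tested.

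The genes within 500 kb of ABCB1 (protein-coding, expressed in the tables, looked at with the ABCB1 values known and not tested as a set) did not share its pattern as a block. ABCB4, its closest paralogue and a transporter of phosphatidylcholine, lies next to it and was lower in the resistant and K562 libraries. It averaged 0.594 ± 0.237 CPM in resistant 1, 0.476 ± 0.208 CPM in K562, 16.4 ± 0.144 CPM in vehicle and 13.6 ± 0.594 CPM in parental libraries of batch 1 (SD, n = 3 each). The batch 2 means were 0.82 ± 0.152 CPM in resistant 2, 0.262 ± 0.0914 CPM in resistant 1 and 27.9 ± 1.02 CPM in vehicle. Reads shared between these paralogues could be split in counting, which was not tested. RUNDC3B overlaps ABCB1 on the other strand with no shared exon bases, and its highest value in any library was 0.663 CPM, in a batch 2 vehicle library that had no ABCB1 count.

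ADAM22, which encodes a membrane protein of the synapse, was high in resistant 2 as ABCB1 was. Its levels were 7.70, 7.04 and 6.47 CPM in resistant 2, 1.62, 1.80 and 2.48 CPM in resistant 1 of batch 2, and 0.877, 2.48 and 1.61 CPM in vehicle of batch 2. In batch 1 it averaged 3.95 ± 0.535 CPM in resistant 1 and 0.634 ± 0.2 CPM in K562, the reverse of the order of ABCB1. DBF4, a regulator of DNA replication, averaged 108.9 ± 6.20 CPM in resistant 1 of batch 1, 157.0 ± 4.02 CPM in K562 and 57.5 ± 0.438 CPM in vehicle. Its parental mean was 63.8 ± 0.902 CPM. In batch 2 DBF4 averaged 114.0 ± 10.6 CPM in resistant 2 and 105.7 ± 7.86 CPM in resistant 1, whose ranges overlap. Vehicle of batch 2 averaged 64.5 ± 5.24 CPM. In batch 1 DBF4 and CROT followed the order of ABCB1, with K562 above resistant 1 and both above vehicle and parental means. CROT averaged 9.50 CPM in K562, 8.03 CPM in resistant 1 and 4.25 CPM in vehicle. In batch 2 CROT averaged 4.55 CPM in resistant 2, 6.62 CPM in resistant 1 and 3.42 CPM in vehicle. TMEM243 averaged 3.64 CPM in resistant 1 and 13.2 CPM in vehicle of batch 1, and SLC25A40 54.6 and 56.5 CPM.

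**Figure D2:**
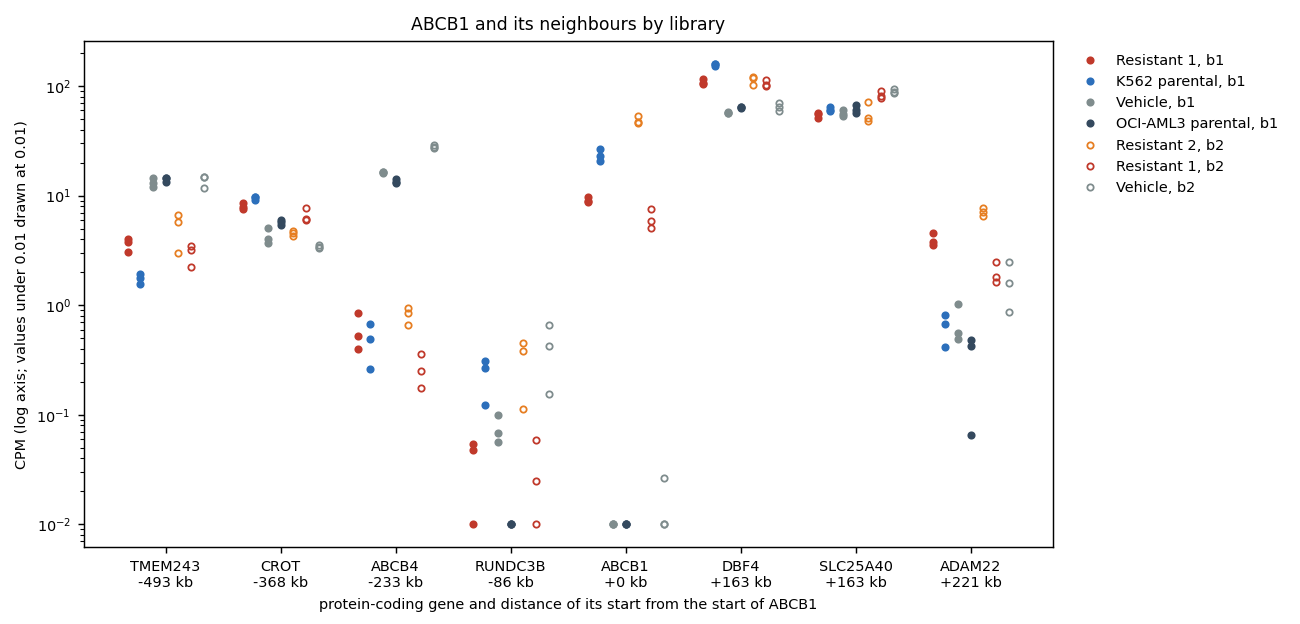
CPM (log axis, values under 0.01 drawn at 0.01) of ABCB1 and the protein-coding genes around it in each library, ordered by distance in kb of each start from that of ABCB1; filled points are batch 1 and open points batch 2. ABCB4 is under 1 CPM in the resistant and K562 libraries and 13.1 to 29.0 CPM in the OCI-AML3 vehicle and parental libraries.

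ABCB6 encodes a transporter of porphyrins found in mitochondrial and plasma membranes, and carries the Lan blood group antigen. It lies on the minus strand at chr2:219209772-219218994 (hg38). Its start is shown because, of the transporter genes counted in every group, it rose most against vehicle in each resistant group.
ABCB6: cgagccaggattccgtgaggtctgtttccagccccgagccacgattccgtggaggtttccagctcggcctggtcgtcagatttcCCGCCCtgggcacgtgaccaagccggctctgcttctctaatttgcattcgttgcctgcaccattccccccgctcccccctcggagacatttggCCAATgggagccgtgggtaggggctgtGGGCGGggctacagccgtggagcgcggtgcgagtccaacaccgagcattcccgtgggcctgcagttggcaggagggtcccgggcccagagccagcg
The window, chr2:219218909-219219208, holds 1 CCAAT and 2 GGGCGG matches on either strand and has 65.7% G and C. An unnamed gene model shares 2841 exon bases with ABCB6 on the same strand and was not among the genes of the tables.

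ABCB6 was higher in all groups with a K562-like profile. Its levels in batch 1 were 36.7, 41.5 and 41.4 CPM in resistant 1, 29.9, 30.1 and 32.0 CPM in K562, 5.24, 7.24 and 6.30 CPM in vehicle and 10.1, 9.31 and 10.3 CPM in parental libraries. In batch 2 they were 19.4, 17.8 and 22.3 CPM in resistant 2, 17.9, 16.2 and 15.3 CPM in resistant 1 and 1.33, 1.66 and 1.20 CPM in vehicle. In batch 1 no 2 groups overlapped, and in batch 2 resistant 2 and resistant 1 overlapped while vehicle lay apart. The log2 fold change against vehicle was 2.75 ± 0.10 in resistant 1 of batch 1 (SE, adjusted p = 7.8e-20), 3.54 ± 0.18 in resistant 1 of batch 2 (adjusted p = 1.5e-10) and 3.81 ± 0.18 in resistant 2 (adjusted p = 7.2e-11). K562 against OCI-AML3 parental gave 1.67 ± 0.09 (adjusted p = 1.5e-13).

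ABCC1, ABCC4, ABCC5 and ABCC10, the well-counted C subfamily genes among the 10, were each higher than in vehicle in all 3 resistant groups. This did not hold for the whole subfamily. ABCC2 (MRP2) and ABCC6 (MRP6), which are not among the 10 and were named after their values were seen, were lower. Against vehicle, ABCC2 had fitted log2 fold changes of -3.55 in resistant 1 of batch 1, -2.32 in resistant 1 of batch 2 and -2.11 in resistant 2. Those of ABCC6 were -3.88, -3.89 and -1.65 in that order. Their counts were few, with ABCC2 at 6 in resistant 1 and 76 in vehicle of batch 1. ABCC6 had 9 counts in resistant 1 and 134 in vehicle of batch 2. ABCC9, also outside the 10 and named after its values were seen, went the other way. It had 66 counts in resistant 1 of batch 1, 42 in resistant 1 of batch 2, 71 in resistant 2 and 0 in vehicle of either batch. ABCC1 (MRP1, chr16:15949138-16143257, plus strand) exports glutathione conjugates and leukotriene C4. It averaged 130.3 ± 5.42 CPM in resistant 1, 120.4 ± 1.55 CPM in K562, 67.3 ± 2.20 CPM in vehicle and 61.5 ± 1.70 CPM in parental libraries of batch 1 (SD, n = 3 each). The means of batch 2 were 100.9 ± 1.18 CPM in resistant 2, 127.2 ± 16.4 CPM in resistant 1 and 49.1 ± 2.71 CPM in vehicle. Its log2 fold change against vehicle was 1.04 ± 0.05 in resistant 1 of batch 1, 1.36 ± 0.11 in resistant 1 of batch 2 and 1.03 ± 0.11 in resistant 2 (SE, adjusted p = 2.6e-16, 4.5e-08 and 9.5e-07). Resistant libraries and vehicle libraries did not overlap in either batch.

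ABCC4 (MRP4, chr13:95019835-95301475, minus strand) exports cyclic nucleotides and prostaglandins. It averaged 134.3 ± 3.81 CPM in resistant 1, 128.5 ± 4.08 CPM in K562, 64.1 ± 2.47 CPM in vehicle and 69.1 ± 5.60 CPM in parental libraries of batch 1 (SD, n = 3 each). Batch 2 gave 185.7 ± 17.9 CPM in resistant 2, 205.5 ± 9.19 CPM in resistant 1 and 79.7 ± 6.67 CPM in vehicle. In each batch the libraries with the K562-like profile overlapped among themselves and lay above the vehicle libraries. Its log2 fold changes against vehicle were 1.15 ± 0.06, 1.36 ± 0.11 and 1.21 ± 0.11 for resistant 1 of batch 1, resistant 1 of batch 2 and resistant 2 (SE, adjusted p = 1.9e-16, 3.3e-08 and 1.2e-07).

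ABCC5 (MRP5, chr3:183919934-184017939, minus strand) exports cyclic nucleotides and nucleotide analogues. It averaged 96.3 ± 2.43 CPM in resistant 1, 90.9 ± 3.76 CPM in K562, 35.3 ± 1.64 CPM in vehicle and 38.8 ± 1.56 CPM in parental libraries of batch 1 (SD, n = 3 each). Batch 2 libraries averaged 37.0 ± 3.58 CPM in resistant 2, 54.7 ± 6.24 CPM in resistant 1 and 15.2 ± 1.28 CPM in vehicle. The resistant 1 and vehicle levels of batch 2 were below those of batch 1 in tables normalized separately, while the fold changes against vehicle were 1.53 ± 0.06 in resistant 1 of batch 1, 1.84 ± 0.13 in resistant 1 of batch 2 and 1.27 ± 0.13 in resistant 2 on the log2 scale (SE, adjusted p = 6.2e-19, 7.7e-09 and 4.4e-07).

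ABCC10 (MRP7, chr6:43427366-43450427, plus strand) exports taxanes among other drugs. It averaged 31.2 ± 1.58 CPM in resistant 1, 31.2 ± 2.29 CPM in K562, 18.5 ± 1.35 CPM in vehicle and 19.4 ± 1.89 CPM in parental libraries of batch 1 (SD, n = 3 each). Means in batch 2 were 18.9 ± 0.738 CPM in resistant 2, 12.8 ± 2.60 CPM in resistant 1 and 8.08 ± 1.222 CPM in vehicle. The log2 fold change against vehicle was 0.83 ± 0.08 in resistant 1 of batch 1 (SE, adjusted p = 4.0e-10), 0.65 ± 0.17 in resistant 1 of batch 2 (adjusted p = 0.0029) and 1.21 ± 0.17 in resistant 2 (adjusted p = 1.2e-05). ABCC10 shares 76 exon bases with DLK2 on the other strand, which had 75 counts over all 21 libraries.

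ABCC3 and ABCG2 were close to the counting floor. ABCC3 (MRP3, chr17:50634777-50692253, plus strand), which exports glucuronide conjugates, had 12, 19 and 9 counts in resistant 1 of batch 1, 2, 0 and 1 in K562, and 0, 3 and 0 in vehicle. Its ratio of resistant 1 to vehicle was 12.8 with an exact 95% counting interval of 4.08 to 64.8, and its ratio of resistant 1 to K562 was 12.3 with an interval of 3.91 to 62.1. It passed the filter of batch 1 through resistant 1 alone, so its calls there are not used as support. At its highest, 1.02 CPM in a resistant 1 library, it remained far below the other MRP genes. ABCC3 in batch 2 had 7, 17 and 16 counts in resistant 2, 3, 3 and 5 in resistant 1 and none in vehicle. Against a floor of 3 counts over the vehicle group, resistant 2 was 11.3-fold and resistant 1 3.54-fold higher. These folds leave out the counting error of the few resistant counts. The resistant 2 and resistant 1 ranges overlapped in CPM, and ABCC3 was not tested in batch 2.

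ABCG2 (chr4:88090150-88231628, minus strand) encodes the breast cancer resistance protein, a half-transporter of many drugs and of urate. Over 3 libraries each it had 6 counts in resistant 1, 12 in K562, 1 in vehicle and none in parental libraries of batch 1, and 8 in resistant 2, 4 in resistant 1 and 1 in vehicle of batch 2. The ratio of resistant 1 to vehicle in batch 1 was 5.77 (0.70 to 265.4), and that of resistant 2 to vehicle 6.76 (0.907 to 300.1), so a difference was not detectable at this depth. K562 was 3.70-fold higher than OCI-AML3 parental against a floor of 3 counts over the group, which leaves out the counting error of the 12 K562 counts. No library exceeded 0.337 CPM.

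ABCA2, an endolysosomal transporter linked to sterol and sphingolipid handling and to resistance to estramustine, moved the other way. It lies on the minus strand at chr9:137007234-137028915 (hg38). One of its RefSeq starts is shown because it was the only transporter gene called lower against vehicle.
ABCA2: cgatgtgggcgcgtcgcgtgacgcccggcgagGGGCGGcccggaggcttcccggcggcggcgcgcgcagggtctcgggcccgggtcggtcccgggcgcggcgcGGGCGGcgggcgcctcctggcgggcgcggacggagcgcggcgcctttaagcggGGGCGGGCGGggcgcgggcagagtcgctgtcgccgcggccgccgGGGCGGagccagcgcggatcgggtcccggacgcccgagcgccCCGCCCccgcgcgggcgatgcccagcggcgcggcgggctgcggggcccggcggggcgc
This window, chr9:137028188-137028487, has 86.7% G and C, against a median of 58.7% over all promoter windows, and holds 6 GGGCGG matches on either strand, of which a pair overlaps, and no CCAAT. The window of its other start, chr9:137028873-137029172, has 64.3% G and C and neither motif, and is not printed.

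The ABCA2 level in batch 1 was 37.5, 42.2 and 39.2 CPM in resistant 1, 18.7, 15.7 and 18.1 CPM in K562, 184.3, 189.2 and 192.0 CPM in vehicle and 187.3, 187.2 and 201.9 CPM in parental libraries. In batch 2 it was 15.7, 19.1 and 19.8 CPM in resistant 2, 20.7, 11.7 and 18.7 CPM in resistant 1 and 75.3, 76.1 and 56.1 CPM in vehicle. Vehicle and parental libraries were high and overlapped, and no library labelled resistant reached them. The log2 fold change against vehicle was -2.16 ± 0.06 in resistant 1 of batch 1 (SE, adjusted p = 5.7e-23), -2.03 ± 0.19 in resistant 1 of batch 2 (adjusted p = 2.7e-07) and -1.94 ± 0.19 in resistant 2 (adjusted p = 4.1e-07). K562 against OCI-AML3 parental gave -3.43 ± 0.07 (adjusted p = 1.2e-20).

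ABCA3 (chr16:2275881-2340746, minus strand) carries phospholipids into lamellar bodies, where lung surfactant is stored, and has also been studied in drug-resistant leukaemia. It averaged 60.0 ± 2.45 CPM in resistant 1, 54.3 ± 3.48 CPM in K562, 25.5 ± 2.30 CPM in vehicle and 14.9 ± 0.639 CPM in parental libraries of batch 1 (SD, n = 3 each). Batch 2 means were 53.0 ± 6.89 CPM in resistant 2, 42.4 ± 2.01 CPM in resistant 1 and 16.6 ± 1.95 CPM in vehicle. The libraries with the K562-like profile lay above all vehicle and parental libraries of their batch. Against vehicle its log2 fold change was 1.32 ± 0.07 in resistant 1 of batch 1 (SE, adjusted p = 7.9e-16), 1.34 ± 0.13 in resistant 1 of batch 2 (adjusted p = 3.1e-07) and 1.66 ± 0.13 in resistant 2 (adjusted p = 3.0e-08).

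**Figure D3:**
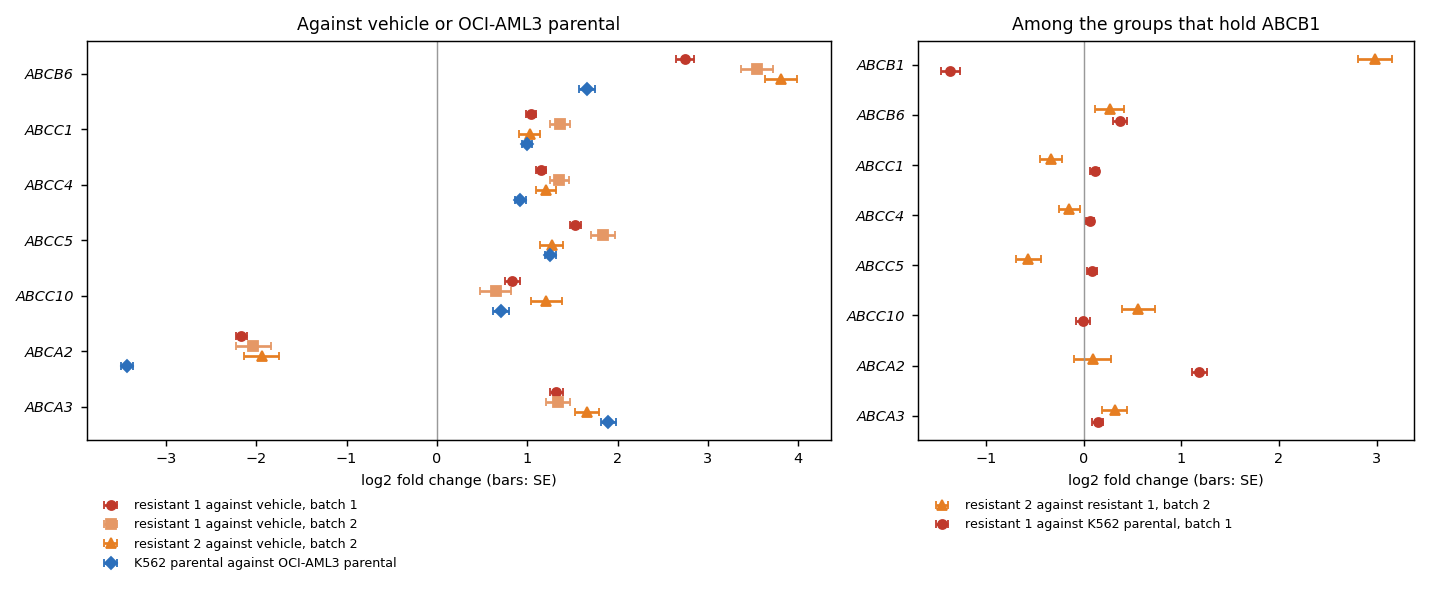
Log2 fold change with SE of transporter genes in each comparison, on the left against vehicle or, for K562, against OCI-AML3 parental, and on the right among the resistant and K562 groups; genes with groups at or near 0 counts (ABCC3, ABCG2 and, on the left, ABCB1) are left out. ABCA2 is the only gene left of 0 in the left panel, and ABCB1 has the values farthest from 0 in the right panel, at 2.98 and -1.37.

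Set per kb of annotated exon, which allows levels of different genes to be compared, the 10 genes summed to 62.0 to 64.0 CPM per kb in resistant 1, 58.3 to 59.2 in K562, 40.6 to 41.9 in vehicle and 40.8 to 41.8 in parental libraries of batch 1. In batch 2 the sum was 56.9 to 60.6 CPM per kb in resistant 2, 51.7 to 58.7 in resistant 1 and 23.3 to 27.2 in vehicle. The order of the genes changed as well as the sum. ABCA2 was first in OCI-AML3 of batch 1, with 39.3 to 40.0% of the sum in vehicle and 39.2 to 42.0% in parental libraries, and gave 5.26 to 5.73% in resistant 1 and 2.34 to 2.78% in K562. ABCC4 was first in resistant 1 of batch 1 with 23.7 to 25.8% and ABCC1 next with 23.0 to 24.2%, and these 2 genes also led in K562. In vehicle of batch 2 ABCC4 led with 33.1 to 38.1% and ABCA2 followed with 20.9 to 24.8%, so the order within vehicle differed between batches.

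ABCB1 gave 12.2 to 14.3% of the summed level per kb in resistant 2, next after ABCC4 and ABCC1. In resistant 1 its share was 1.38 to 2.00% for batch 2 and 2.17 to 2.39% for batch 1, and in K562 it was 5.58 to 7.10%. These shares are of messenger RNA, on the exon lengths of the GENCODE annotation, and isoforms of other lengths would change them.

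**Figure D4:**
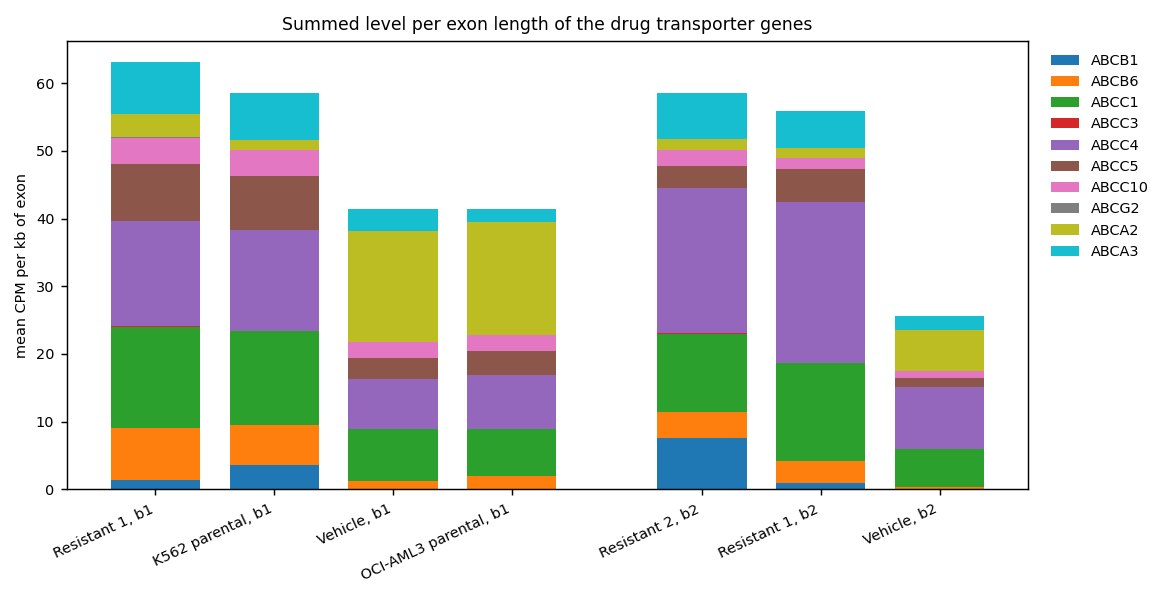
Mean CPM per kb of exon of the transporter genes, stacked, in each group (n = 3 libraries each), batch 1 left and batch 2 right. ABCA2 fills the largest segment of the vehicle and parental bars of batch 1, and ABCB1 is visible as a large segment only in resistant 2, where its mean is 7.64 CPM per kb.

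Resistant 2 against resistant 1, both in batch 2, asks how 2 lines with the same label differ. Of 8 transporter genes tested, 2 were higher (ABCB1 and ABCC10), 2 lower (ABCC1 and ABCC5) and 4 were not called, with 24.4% of 15218 genes called, 12.4% higher and 11.9% lower. The median over the transporter genes was 0.18 on the log2 scale, against 0 over all genes. ABCC5 was 36.7, 40.7 and 33.6 CPM in resistant 2 against 61.9, 50.6 and 51.6 CPM in resistant 1, with no overlap and a log2 difference of -0.57 ± 0.13 (SE, adjusted p = 0.0050). ABCC10 was 19.6, 19.04 and 18.1 CPM in resistant 2 against 11.96, 15.7 and 10.7 CPM in resistant 1, and was higher by 0.56 ± 0.17 on the log2 scale (adjusted p = 0.0243). ABCC1 was 100.6, 99.9 and 102.2 CPM in resistant 2 against 132.4, 108.8 and 140.4 CPM in resistant 1, with a log2 difference of -0.34 ± 0.11 (adjusted p = 0.0394).

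ABCB1 and ABCC5 kept their calls when any library of batch 2 was left out. ABCC10 lost its call without replicate 1 or 3 of resistant 1 or replicate 1 or 3 of resistant 2, with log2 fold changes of 0.51, 0.45, 0.54 and 0.59. ABCC1 lost it without any of those 4 libraries (-0.31, -0.26, -0.33 and -0.34) and without vehicle replicate 2 or 3 (-0.34 in either case). ABCA3 did not pass the test, at 0.32 ± 0.13 (SE, adjusted p = 0.087), but did without replicate 1 of resistant 2, at 0.42. ABCB6, ABCC4 and ABCA2 had log2 fold changes of 0.26 ± 0.15, -0.15 ± 0.11 and 0.09 ± 0.19 (adjusted p = 0.221, 0.341 and 0.769).

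Resistant 1 against K562 parental in batch 1 sets the libraries labelled OCI-AML3 resistant beside the line they resembled. Of 9 transporter genes tested, 5 were higher, 1 lower and 3 not called, with 59.8% of 13006 genes called, 31.3% higher and 28.5% lower. The median was 0.11 on the log2 scale against 0.01 over all genes. The larger differences were in ABCB1, lower in resistant 1 as given above, in ABCA2, higher at 1.18 ± 0.08 (SE, adjusted p = 3.0e-11), in ABCB6, higher at 0.37 ± 0.07 (adjusted p = 7.0e-05), and in ABCC3, whose counts were few. ABCA2 in resistant 1 lay between K562 and vehicle and overlapped neither.

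ABCC1 and ABCA3 passed narrowly, at 0.11 ± 0.05 and 0.14 ± 0.06 on the log2 scale (SE, adjusted p = 0.0391 and 0.0398). ABCC1 lost its call without any K562 replicate or without resistant 1 replicate 2 or 3, at 0.08 to 0.11, and ABCA3 without K562 replicate 1 or 2 or resistant 1 replicate 1 or 2, at 0.09 to 0.15. ABCC4, ABCC5 and ABCC10 were not called, at 0.06 ± 0.05, 0.09 ± 0.05 and -0.0027 ± 0.07 (adjusted p = 0.225, 0.144 and 0.977). In resistant 1 these 3 genes overlapped K562 and lay above vehicle.

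Vehicle against parental in batch 1 shows how far OCI-AML3 groups without StAMP differed. ABCB1 had 0 counts in both groups and ABCC3 had 3 in vehicle and 4 in parental libraries, too few to tell a difference. Of the other 7 transporter genes tested, 1 was higher, 2 were lower and 4 were not called, with 37.0% of 14505 genes called, 18.7% higher and 18.3% lower. ABCA3 was 23.2, 25.7 and 27.7 CPM in vehicle against 14.5, 15.6 and 14.5 CPM in parental libraries, and was higher by 0.75 ± 0.08 on the log2 scale (SE, adjusted p = 7.5e-08). ABCB6 had a log2 fold change of -0.68 ± 0.12 (adjusted p = 6.3e-05). The call of ABCC5, at -0.16 ± 0.06 (adjusted p = 0.04996), was lost when any of the 9 libraries of the fit was left out, at -0.19 to -0.13. ABCA2 did not pass the test, at -0.06 ± 0.05 (adjusted p = 0.401).

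The effect of resistant 1 against vehicle was measured in both batches, and an interaction term tested whether it differed. Of 9 transporter genes tested, 1 was called, with 33.2% of 15209 genes called, 15.0% higher and 18.2% lower. Of the calls over all genes 45.1% were thus higher, but 53.1% with DESeq2 size factors, where the median over all genes was 0.04 in place of -0.02, so which direction prevails depends on the scaling. More transporter genes were called higher with those size factors, as given below. ABCB6 rose more in batch 2 than in batch 1, by 0.77 ± 0.20 on the log2 scale (SE, adjusted p = 0.0070). For ABCB1 the term was -2.03 ± 1.87 (adjusted p = 0.462). With 0 counts in vehicle of batch 1 and 1 in vehicle of batch 2, it could hardly show a difference for ABCB1. ABCC1 and ABCC5 did not pass, at 0.30 ± 0.12 and 0.28 ± 0.13 (adjusted p = 0.0665 and 0.104). ABCA2, at 0.11 ± 0.22, and ABCA3, at 0.0040 ± 0.14, did not pass either (adjusted p = 0.778 and 0.99993).

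The other 38 genes of the ABC family were set beside the 10 transporter genes. In resistant 1 against vehicle of batch 1, 23 were tested, of which 9 rose and 12 fell, and their median log2 fold change was -0.37, against 1.32 for the 9 transporter genes tested and 0.02 for all genes. In resistant 2 against vehicle, 9 rose and 15 fell of 28 tested, with a median of -0.47. In K562 against OCI-AML3 parental, 10 rose and 10 fell of 23 tested, with a median of 0.07. Over all genes, 44.0% were called higher and 42.1% lower in resistant 1 of batch 1. These shares were 40.2% and 35.9% for resistant 2 and 42.6% and 42.5% for K562. No test of the difference between the lists was made. The 10 members were chosen with earlier results of these data known, so the contrast is a description only.

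The named genes of the family that rose in resistant 1 of batch 1 were ABCA8, ABCB9 and ABCA7. ABCA8, a transporter of the A subfamily, averaged 16.6 ± 0.92 CPM in resistant 1 against 0 counts in vehicle (at least 290.0-fold higher by counting), and 28.3 ± 5.47 CPM in resistant 2 against 0 counts in vehicle of batch 2. In K562 it averaged 17.9 ± 2.63 CPM, also against 0 counts in OCI-AML3 parental. ABCB9, a lysosomal peptide transporter, averaged 14.1 ± 0.926 CPM in resistant 1 and 5.03 ± 0.646 CPM in vehicle of batch 1 (log2 fold change 1.57 ± 0.12, adjusted p = 1.7e-12). ABCA7, a lipid transporter, averaged 103.5 ± 7.20 CPM in resistant 1 and 44.7 ± 3.90 CPM in vehicle (1.29 ± 0.08, adjusted p = 1.6e-12).

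ABCA1, which exports cholesterol to apolipoproteins, fell. It had 2 counts over the resistant 1 libraries of batch 1 and 723 over vehicle, and was 376-fold lower with a counting interval of 103.7 to 3111. In batch 2 it averaged 0.45 ± 0.236 CPM in resistant 2 and 35.2 ± 13.5 CPM in vehicle, and in batch 1 0.0173 ± 0.03 CPM in K562 and 5.75 ± 0.59 CPM in OCI-AML3 parental. ABCD2, a peroxisomal fatty acid transporter, averaged 0.153 ± 0.138 CPM in resistant 1 and 6.25 ± 0.218 CPM in vehicle of batch 1. It had 8 counts against 328, and was 42.6-fold lower with a counting interval of 21.4 to 99.6. TAP1, a subunit of the peptide transporter of antigen presentation, went in different directions. It averaged 43.8 ± 2.68 CPM in resistant 2 and 19.8 ± 2.43 CPM in vehicle of batch 2 (log2 fold change 1.13 ± 0.15, adjusted p = 7.3e-06), but 6.96 ± 0.377 CPM in K562 and 44.3 ± 2.68 CPM in OCI-AML3 parental (-2.64 ± 0.09, adjusted p = 8.5e-17). ABCB8, a mitochondrial transporter, averaged 68.2 ± 4.89 CPM in K562 and 30.7 ± 2.68 CPM in OCI-AML3 parental (adjusted p = 5.2e-12).

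**Figure D5:**
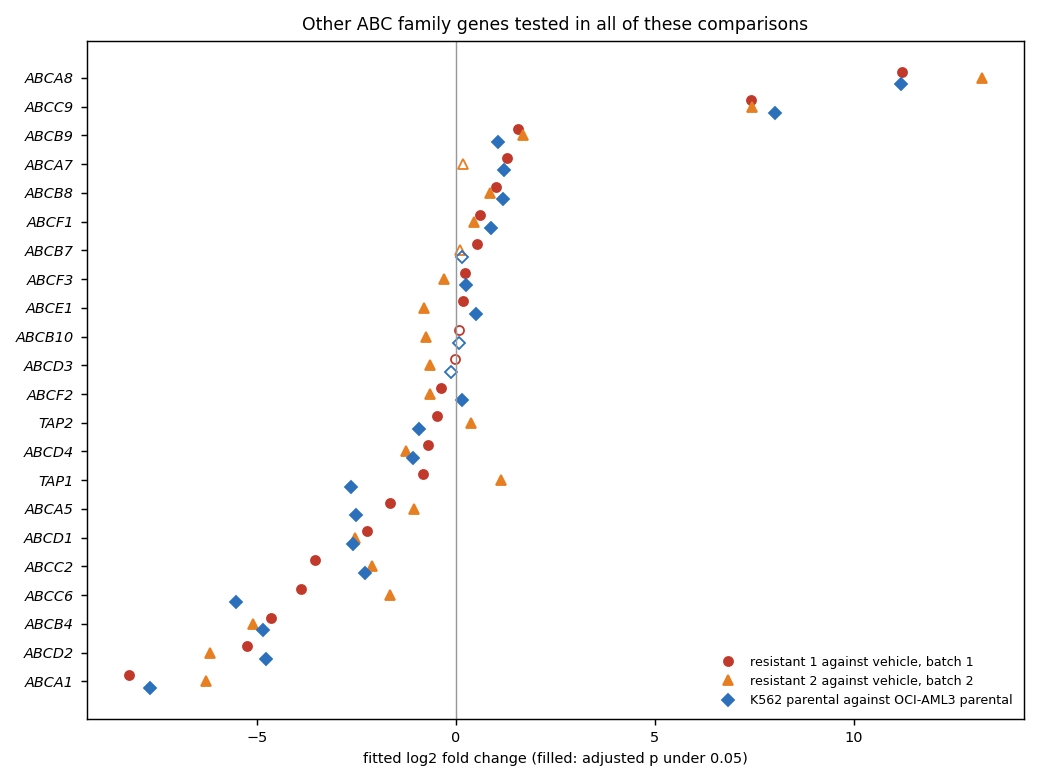
Fitted log2 fold change of the 22 other ABC family genes tested in all 3 comparisons shown, filled where the adjusted p was under 0.05, ordered by resistant 1 against vehicle. Genes run from ABCA8, at the top, to ABCA1, at the bottom; fitted values of genes at 0 or few counts in a group, such as ABCA8, ABCC9 and ABCA1, depend on the prior count and are no bounds.

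Genes that act on transport or with it were called in both directions, as were genes at large. Of all 14505 genes tested in resistant 1 against vehicle of batch 1, 44.0% were called higher and 42.1% lower. Of 21 regulators of transporter genes and vault proteins, 19 were tested in resistant 1 against vehicle of batch 1, of which 4 rose and 12 fell, with a median of -0.17. KAT2B, a histone acetyltransferase, averaged 42.0 ± 3.63 CPM in resistant 1 and 12.5 ± 1.03 CPM in vehicle (adjusted p = 4.7e-17), and EZH2, a histone methyltransferase, 176.8 ± 9.31 and 98.8 ± 3.95 CPM (adjusted p = 4.2e-15). AHR, the dioxin receptor and an activator of ABCG2, had 2 counts in resistant 1 against 1284 in vehicle. In batch 2 the list gave 4 higher and 10 lower of 19 tested in resistant 1 against vehicle (median -0.33). Resistant 2 against vehicle gave 3 higher and 12 lower (median -0.61). All genes gave 39.9% higher and 35.8% lower in resistant 1, and 40.2% and 35.9% in resistant 2.

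Glutathione conjugation supplies substrates to ABCC1. Of 18 genes of this list in the tables, 16 were tested and 8 rose and 6 fell in resistant 1 of batch 1 against vehicle, with a median of 0.27. The shares over all genes were 44.0% higher and 42.1% lower. GCLM, the modifier subunit of the first enzyme of glutathione synthesis, averaged 113.5 ± 6.02 CPM in resistant 1 and 45.5 ± 2.36 CPM in vehicle (adjusted p = 4.3e-17), and the glutathione transferase GSTM4 31.9 ± 2.16 and 8.07 ± 0.601 CPM (adjusted p = 1.4e-17). GGT1, which breaks down extracellular glutathione, averaged 14.7 ± 0.758 CPM in resistant 1 and 66.7 ± 2.23 CPM in vehicle (adjusted p = 3.6e-20), and the microsomal transferase MGST1 52.8 ± 4.20 and 146.0 ± 2.78 CPM (adjusted p = 1.8e-18). In batch 2 the list gave 11 higher and 4 lower of 17 tested in resistant 1 against vehicle (median 0.86). Resistant 2 against vehicle gave 7 higher and 6 lower (median 0.08). All genes gave 39.9% higher and 35.8% lower in resistant 1, and 40.2% and 35.9% in resistant 2.

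A list of 19 carriers linked to drug uptake also holds the copper exporters ATP7A and ATP7B and the efflux carrier SLC47A1. In the same comparison it gave 8 higher and 4 lower of 14 tested, with a median of 0.21. All genes gave 44.0% higher and 42.1% lower. Of the 8 higher genes, 2 were these exporters, ATP7A at 2.94 ± 0.09 and ATP7B at 3.92 ± 0.09 on the log2 scale (SE), named after their values were seen. The excess of higher genes did not recur in batch 2. There the list gave 5 higher and 6 lower of 14 tested in resistant 1 against vehicle (median -0.19). Resistant 2 against vehicle also gave 5 higher and 6 lower (median -0.06). All genes gave 39.9% higher and 35.8% lower in resistant 1, and 40.2% and 35.9% in resistant 2. SLC29A2, a nucleoside transporter, averaged 50.7 ± 2.71 CPM in resistant 1 and 0.757 ± 0.224 CPM in vehicle of batch 1 (6.13 ± 0.14, adjusted p = 1.2e-24), and SLCO2B1, an organic anion carrier, had 877 counts against 3. SLCO3A1 averaged 0.0921 ± 0.0799 CPM in resistant 1 and 12.6 ± 0.173 CPM in vehicle of batch 1, with 5 counts against 663. The folate carrier SLC46A1 averaged 11.6 ± 0.883 and 18.4 ± 1.84 CPM in these groups (-0.59 ± 0.10, adjusted p = 4.3e-06).

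Among 13034 genes averaging at least 1 CPM, those most alike to ABCB1 in log2(CPM + 1) over the 21 libraries were SPAG16, FGF5 and KCNK5, with Pearson r of 0.987, 0.986 and 0.982. The genes most alike to ABCA2 were SLC39A13, ZNF337 and TSPO, with r of 0.984, 0.983 and 0.981, and to ABCB6 SLC39A7, DGCR6L and SDF2L1, with r of 0.99, 0.984 and 0.983. For ABCC1 they were KIAA1522, NARF and HSPG2, at 0.991, 0.986 and 0.986. Between transporter genes r ran from 0.142 (ABCC4 with ABCC10) to 0.931 (ABCB6 with ABCC5) among those that rose, and ABCA2 had a negative r with each of the others tested this way, from -0.918 with ABCC4 to -0.157 with ABCC10. The 21 points share the division into K562-like and OCI-AML3-like libraries and the batches, so these values are descriptions only.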

How the data were processed

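The authors deposited raw counts per gene symbol, 1 table for each of 2 sequencing batches, for 21 libraries of established cell lines. Per the labels' protocols, total RNA was isolated and strand-specific libraries were sequenced in pairs. The build was hg38 and the workflow VIPER with DESeq2 1.22.1, per the submitters' processing notes, and the names of the tables point to STAR. For the aligner version, annotation and strand setting, the sources used here give nothing, so reads of overlapping genes on opposite strands might not be told apart. All values were whole, and 0 columns were left without a sample. No replicate pair held identical values.

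From these counts, edgeR 4.0.16 in R 4.3.3 was run on each whole table with TMM normalization, filterByExpr, robust quasi-likelihood fits of group means and two-sided F tests, adjusted by Benjamini-Hochberg over all genes tested, with calls at an adjusted p under 0.05. A fit each held the OCI-AML3 groups of batch 1 and the groups of batch 2. K562 was fitted with OCI-AML3 parental and, separately, with resistant 1. The interaction used vehicle and resistant 1 of both batches. CPM use TMM-scaled library sizes within a batch. Levels of the 2 batches were normalized separately, and no test was made across them other than the interaction. Exon lengths and positions come from the GENCODE annotation of hg38. Promoter sequences are from RefSeq (GRCh38.p14), and 8 of the 10 genes had an entry.

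Against a group at 0 counts, folds are bounds set by 3 counts over the group. Otherwise, with 1 to 3 counts or few, the ratio has an exact 95% counting interval. Both cover counting error only, as reads are not independent molecules. The bounds also leave out the counting error of the higher group.

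The members, lists, comparisons and tests were chosen with earlier results of these data known. The rule named all 10 members, up to 3 rising and 3 falling other ABC genes of at least 5 CPM in each of 3 comparisons, up to 2 each of the lists of regulators, conjugation and uptake in resistant 1 of batch 1, and the 3 genes most alike to each member. Of the genes this rule named, 2 are not reported here. The neighbours of ABCB1 were chosen after its values were seen. Alternatives were DESeq2 size factors, no filter, the DESeq2 1.42.0 Wald test, fits of other sets of groups, a replicate block, raw library totals for levels and leaving out each library.

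The same replicate number marked libraries that deviated together, with every pair above 0.1, only for resistant 1 and vehicle of batch 2 (r = 0.1001 to 0.143 across genes). Resistant 1 and resistant 2 of batch 2 fell just short of that limit, with r of 0.0943 to 0.288, so pairing is not excluded there. The fits were tested on simulated data.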

Additional observations from a re-analysis of the deposited data

Results flagged for a closer look

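The rise of ABCB6 in resistant 1 against vehicle was greater in batch 2 than in batch 1 by 0.77 on the log2 scale (edgeR interaction term, adjusted p = 0.0070). In the main fit it was the only transporter gene for which the interaction passed, and the same term was called for 33.2% of all genes tested. With DESeq2 size factors or the DESeq2 Wald test more transporter genes passed, as given below. Library depth, marker levels and sequencing batch moved with the batches, and their part in the difference was not tested.

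Of the other genes named in the report, the interaction passed for 6 (edgeR, Benjamini-Hochberg adjusted p under 0.05). Batch 2 minus batch 1 was -2.15 for ABCB4, 0.56 for TAP1, 0.73 for KAT2B, 0.87 for GSTM4, -1.15 for MGST1 and 2.48 for SLCO3A1, on the log2 scale. Of all genes tested for this term, 33.2% were called. The largest terms rest on few counts. SLCO3A1 had 5 counts in resistant 1 of batch 1, and ABCB4 had 33 in resistant 1 of batch 1 and 30 in that of batch 2.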

How the results depend on the processing

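No called log2 fold change of a transporter gene reversed under the alternatives run. Over all genes the interaction had 45.1% of its calls higher, but 53.1% with DESeq2 size factors and 52.0% with the DESeq2 Wald test (medians -0.02, 0.04 and 0.05). The calls of transporter genes held under every alternative that tested them in resistant 1 against vehicle of both batches, resistant 2 against vehicle and K562 against OCI-AML3 parental. With libraries left out in turn, the counts of transporter genes in those comparisons were 7 to 8 higher and 1 lower. Resistant 2 against resistant 1 gave 1 lower gene without the low-count filter or with only those 2 groups in the fit. Leaving out libraries gave 1 to 2 higher, 1 to 2 lower and 2323 to 4814 genes called, against 3706. Vehicle against parental gave 1 lower gene with DESeq2 size factors, no filter, the DESeq2 Wald test, fits of 2 or 4 groups and the replicate block, and 1 to 2 with libraries left out. Resistant 1 against K562 gave 3 higher genes with DESeq2 size factors, no filter, the DESeq2 Wald test and the replicate block, 2 with all 4 groups, where ABCC3 was filtered out, and 2 to 4 with libraries left out. The interaction gave 3 higher genes with DESeq2 size factors and the DESeq2 Wald test, and 1 to 3 with libraries left out. For these changes the cause was not tested beyond the filter named.

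The replicate block cost ABCC5 its call in vehicle against parental and ABCC1 and ABCA3 theirs in resistant 1 against K562, where the numbers did not pair the libraries, and changed no other call of a transporter gene. For resistant 1 against vehicle in batch 2, where they did, the block gave 7 higher and 1 lower transporter gene and 11858 genes called, against 11521. For resistant 2 against resistant 1 the block gave 4543 genes called, against 3706. With CPM of raw library totals, 14 of 70 group means moved by more than their SD, by ratios of 0.898 to 1.10. Depth limits ABCG2 and ABCC3, which had at most 40 counts in any group.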
